A study of Mus musculus with 14 samples.

Results

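Glutamate released at synapses is cleared by glia, and 10 genes of that uptake and of glial glutamate sensing are described here across the cell types of the mouse spinal cord. They were chosen by symbol from the 55335 features of the files, and all 10 were found once. Slc1a2 and Slc1a3 encode the glutamate transporters GLT-1 and GLAST, and Glul encodes glutamine synthetase. Gria1, Gria2, Gria3 and Gria4 encode the subunits of AMPA receptors. Grm3 and Grm5 encode metabotropic glutamate receptors, and Grin2c encodes a subunit of NMDA receptors. On GRCm38 (GENCODE vM21) the gene of Slc1a2 lies on chromosome 2 (102658659 to 102790784), that of Slc1a3 on chromosome 15 (8634124 to 8710764), that of Glul on chromosome 1 (153899944 to 153909723) and that of Gria4 on chromosome 9 (4417896 to 4796234). Counts are per gene, over its transcripts' 3′ ends.

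Single cells were sequenced from whole spinal cords at P115-120, counted in days after birth, in 14 libraries of dissociated tissue, and the labels' titles gave 4 groups. The group called SOD1 here (3 libraries) carried the human SOD1 transgene with the G93A mutation and had the strain label B6SJL-Tg(SOD1*G93A)1Gur/J. Clec7aKO (4 libraries) lacked the myeloid receptor gene Clec7a and had the strain label B6.129S6-Clec7atm1Gdb/J. SOD1_Clec7aKO (4 libraries) carried the transgene and the Clec7a knockout, and nTg (3 libraries) was labelled as non-transgenic with no further strain. Each comparison of genotypes therefore may also be one of strain backgrounds, and the labels do not tell them apart. The transgene is expressed throughout the body and the knockout is in all cells, so neither acts in glia alone. The labels do not say that each library came from its own animal, and p-values measure the spread between libraries. Libraries are named below by group and title number. A separate library number, used below as a covariate, was 1, 5 and 6 in SOD1 and 8, 9 and 12 in nTg. These do not overlap, so this covariate and genotype are hard to tell apart in SOD1 against nTg. It was 2, 3, 13 and 15 in SOD1_Clec7aKO and 4, 7, 10 and 16 in Clec7aKO.

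Astrocytes take up most synaptic glutamate through GLT-1 and GLAST and turn it into glutamine with glutamine synthetase, and the glutamine returns to neurons. AMPA receptors are tetramers of the 4 subunits, and the edited form of the Gria2 product makes the channel nearly impermeable to calcium. Oligodendrocyte precursors receive synaptic input through AMPA receptors. Loss of GLT-1 from the spinal cord is a known feature of amyotrophic lateral sclerosis and of its SOD1 mouse models.

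The 108892 deposited barcodes gave 89225 cells after filtering, from 2554 to 10220 per library, and a library held 28819852 to 141204910 counts of unique molecular identifiers (UMIs, each standing for 1 captured RNA molecule). Of 107376 distinct barcodes, 1504 were found in more than 1 library, and no pair of libraries shared more than 29. In microglia, Clec7a was at 29.5 to 86.5 CPM (UMIs scaled to a class total of 1e+06, with TMM factors) in nTg and at 882 to 1034 CPM in SOD1. It was at 0.719 to 2.50 CPM in Clec7aKO and at 2.05 to 3.76 CPM in SOD1_Clec7aKO, so the targeted gene followed the knockout labels. Xist exceeded the Y-linked Ddx3y in 2 of 3 nTg and 0 of 3 SOD1 libraries and in 1 of 4 in each of the other groups, so this status was not balanced in SOD1 against nTg. The mouse Sod1 gene does not report the human transgene, so no check of that label was made. Cell classes were rebuilt from clusters and fixed marker genes, and each name stands for cells with such markers. Among 12 classes, microglia held 51517 cells, ependymal cells 7657, astrocytes 5908 and oligodendrocyte precursors 3913. The 10 astrocyte markers, which excluded the genes described here, all had their highest mean level in the astrocyte class, with Gfap at 3219 CPM.

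The genes of uptake and of sensing had different homes among the classes. Slc1a2 was at 4477 ± 1418 CPM (SD, n = 14 libraries) in astrocytes and at 921 ± 283 CPM (n = 14) in oligodendrocyte precursors. It was at 334 ± 109 CPM (n = 5) in oligodendrocytes and 192 ± 58.9 CPM (n = 12) in neurons. In the other classes its mean lay at or below 102 CPM, with 78.9 ± 92.6 CPM (n = 10) in T and NK cells, which should lack it. Slc1a3 was at 435 ± 119 CPM in astrocytes and at 257 ± 26.5 CPM in ependymal cells, the ciliated lining of the central canal. Oligodendrocytes followed at 129 ± 45.4 CPM, oligodendrocyte precursors at 88.6 ± 11.5 CPM and microglia at 63.4 ± 14.6 CPM. Astrocytes were thus the class with the highest level of both transporters.

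Glul had its highest mean in the oligodendrocyte class, which was present only in this clustering. It was at 1254 ± 280 CPM (n = 5) in oligodendrocytes, 793 ± 355 CPM in astrocytes, 667 ± 168 CPM in endothelial cells and 627 ± 278 CPM in microglia (n = 14 each). Over all libraries these last 3 classes did not differ beyond their spread, which pools the 4 groups. Within nTg the astrocyte libraries lay above those of endothelial cells and microglia, and within SOD1 they lay below those of endothelial cells. Oligodendrocyte precursors and ependymal cells had the lowest means, at 68.8 ± 18.4 and 52.2 ± 13.2 CPM. The oligodendrocyte class was small (279 cells, 40.1% of them from 1 library) and carried microglia markers nearly as strongly as its own (mean log2 fold 4.72 against 5.09). At Leiden resolution 0.5, and with the 10 genes and the pathway list among the variable genes, no cluster was named oligodendrocytes, so the first place of this class rests on 1 clustering.

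Neurons and oligodendrocyte precursors held most of the AMPA receptor transcripts. Gria2 was at 1357 ± 328 CPM (n = 12) in neurons, 793 ± 104 CPM in oligodendrocyte precursors, 245 ± 53.2 CPM (n = 4) in cerebrospinal fluid contacting neurons and 198 ± 164 CPM in astrocytes. The astrocyte mean of Gria2 pools groups that differed strongly, as given below. Gria1 was at 294 ± 60.0 CPM in neurons and 110 ± 44.8 CPM in astrocytes, and only at 6.79 ± 2.98 CPM in oligodendrocyte precursors. Gria3 and Gria4 had their highest means in oligodendrocyte precursors, at 374 ± 62.8 and 402 ± 80.8 CPM. In neurons they were at 91.4 ± 40.1 and 81.6 ± 26.6 CPM, and in astrocytes at 6.87 ± 6.27 and 56.3 ± 38.0 CPM. Among the glial classes, Gria1 was thus highest in astrocytes, and Gria2, Gria3 and Gria4 in oligodendrocyte precursors.

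Each of the remaining receptors had another leading class. Grm5, which couples to calcium release, was at 511 ± 187 CPM in neurons, 325 ± 46.2 CPM in oligodendrocyte precursors and 12.9 ± 5.42 CPM in astrocytes. Grm3, which couples to inhibition of cyclic AMP formation, was at 59.8 ± 14.3 CPM in mural cells, the cells around small vessels. It was at 12.9 ± 22.05 CPM in oligodendrocytes and 10.7 ± 5.78 CPM in astrocytes, and these 2 did not differ beyond their spread. Grin2c was at 83.5 ± 36.1 CPM in astrocytes and 13.4 ± 7.19 CPM in neurons, and its mean was at or below 2.02 CPM in every other class.

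**Figure D1:**
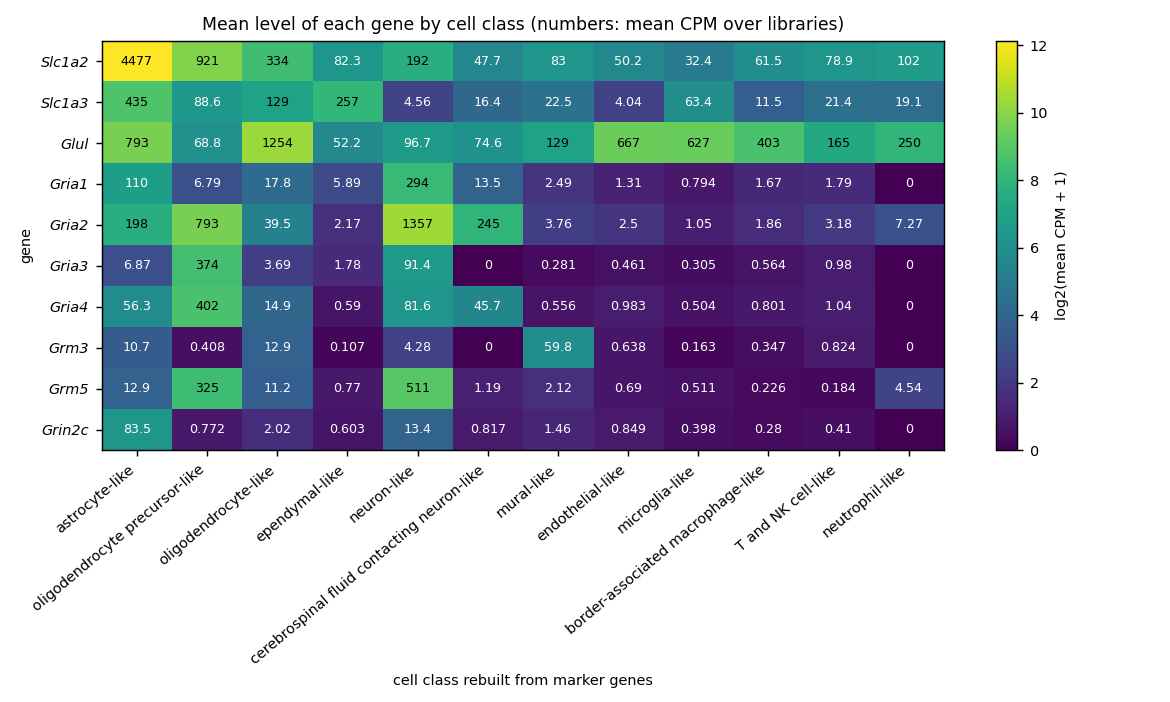
Heat map of the 10 genes (vertical axis) in the 12 cell classes (horizontal axis), with colour for log2(mean CPM + 1) and the mean CPM over libraries printed in each cell. Slc1a2, Slc1a3 and Grin2c peak in astrocytes, Gria3 and Gria4 in oligodendrocyte precursors, Grm3 in mural cells and Glul in oligodendrocytes.

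The genes with the most similar profile over the 12 classes were found by Pearson correlation of mean log2(CPM + 1) among 7143 genes, as a description only. For Slc1a2 they were Cdh20 (r = 0.965), Lpo (0.963) and Cldn10 (0.962). For Slc1a3 they were Ramp1 (0.879), Kcnj10 (0.873) and Mid1ip1 (0.866), and for Glul Sbno2 (0.896), Selenop (0.894) and Anxa3 (0.891). For Grin2c they were Egfl6 (0.981), St8sia5 (0.952) and Acvr1c (0.939). The classes share libraries, and the cells of 1 class differ in depth from those of another.

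In astrocytes, Slc1a3, Glul, Gria1, Gria2, Gria4, Grm3 and Grin2c were lower with the SOD1 transgene in both comparisons, and Slc1a2 passed by edgeR in SOD1_Clec7aKO against Clec7aKO alone. The calls of Slc1a3, Glul, Grm3 and Grin2c were each lost without 1 library or more in at least 1 comparison, and the values without them stand beside each gene. Of the 10 genes, 7 fell and 1 rose in SOD1 against nTg (adjusted p under 0.05 in edgeR's quasi-likelihood test, over 13032 genes). Of all genes tested in astrocytes, 35.6% passed this threshold, 17.8% as lower and 17.8% as higher. In SOD1_Clec7aKO against Clec7aKO, which shares no library with the first comparison although both were fitted together, 8 fell and none rose. There 33.3% of all genes passed, 16.6% as lower and 16.8% as higher. The median log2 fold change of the 10 genes was -0.998 in the first comparison and -1.02 in the second, and over all genes tested it was -0.07 and -0.08. The libraries of the 2 groups did not overlap for 9 of the 10 genes in the first comparison (50.7% of all genes) and for 4 of the 10 in the second (26.1%).

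Slc1a2 in astrocytes was at 6320, 4930.1 and 6048 CPM in nTg replicates 1 to 3, and at 4407, 3113 and 3793 CPM in SOD1. In Clec7aKO replicates 1 to 4 it was at 5399, 7176, 5329 and 3802 CPM, and in SOD1_Clec7aKO at 3639, 2789, 2592 and 3338 CPM. The groups with and without the transgene did not overlap in either comparison, and the lowest library without it was Clec7aKO_4. The log2 fold change was -0.61 ± 0.25 (SE) in SOD1 against nTg, which missed the threshold (edgeR adjusted p = 0.0641), and -0.81 ± 0.22 in SOD1_Clec7aKO against Clec7aKO (adjusted p = 0.00862). By DESeq2 Slc1a2 passed in both comparisons. The share of astrocytes with at least 1 Slc1a2 UMI, after thinning each cell to 2000 UMIs, was at 91.6% or above in all 4 groups, against 9.39% of T and NK cells. That background is a mean over 9 libraries, none of them nTg, where these cells were too few, and by group it was 16.6% in Clec7aKO (2 libraries), 7.97% in SOD1 and 6.86% in SOD1_Clec7aKO. The thinning left out 191 of 1863 astrocytes in nTg, 339 of 2215 in Clec7aKO, 236 of 884 in SOD1 and 278 of 946 in SOD1_Clec7aKO, and the median depth was 4609 UMIs in astrocytes and 3974 UMIs in T and NK cells.

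Slc1a3 in astrocytes was at 551, 449 and 546 CPM in nTg and at 306, 353 and 379 CPM in SOD1. It was at 435, 664, 485 and 571 CPM in Clec7aKO and at 335, 269.9, 454 and 295 CPM in SOD1_Clec7aKO. The SOD1 libraries all lay below those of nTg, whereas SOD1_Clec7aKO_3 lay above the lowest Clec7aKO library. In log2 terms the changes were -0.57 ± 0.22 (edgeR adjusted p = 0.048) and -0.66 ± 0.19 (adjusted p = 0.0137). The first is at the edge of the threshold and passed it in only 2 of 24 alternative settings, with adjusted p up to 0.192 (with Xist status as a covariate -0.61, adjusted p = 0.107). The second was lost without SOD1_Clec7aKO_2, Clec7aKO_2 or Clec7aKO_4 (adjusted p = 0.0612, 0.0634 and 0.0553).

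Glul in astrocytes was at 982, 934 and 918 CPM in nTg and at 507, 383 and 469 CPM in SOD1. In Clec7aKO it was at 836, 1302, 1149 and 1355 CPM, and in SOD1_Clec7aKO at 555, 221, 499.6 and 993 CPM. SOD1 lay wholly below nTg, while SOD1_Clec7aKO_4, a library with 34 astrocytes, lay within the Clec7aKO range. The log2 fold changes were -1.06 ± 0.35 (edgeR adjusted p = 0.0266) and -1.07 ± 0.31 (adjusted p = 0.014). The call in SOD1 against nTg was lost without SOD1_2, SOD1_3 or any 1 of the nTg libraries (adjusted p = 0.0641 to 0.108) and with Xist status or the library number as a covariate (-0.78, adjusted p = 0.143, and -0.74, adjusted p = 0.0927), and the other without Clec7aKO_4 (adjusted p = 0.0513). The share of astrocytes with a Glul UMI after thinning was 72.7% in nTg and 48.5% in SOD1, 76.6% in Clec7aKO and 50.1% in SOD1_Clec7aKO, against 17.3% of T and NK cells.

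**Figure D2:**
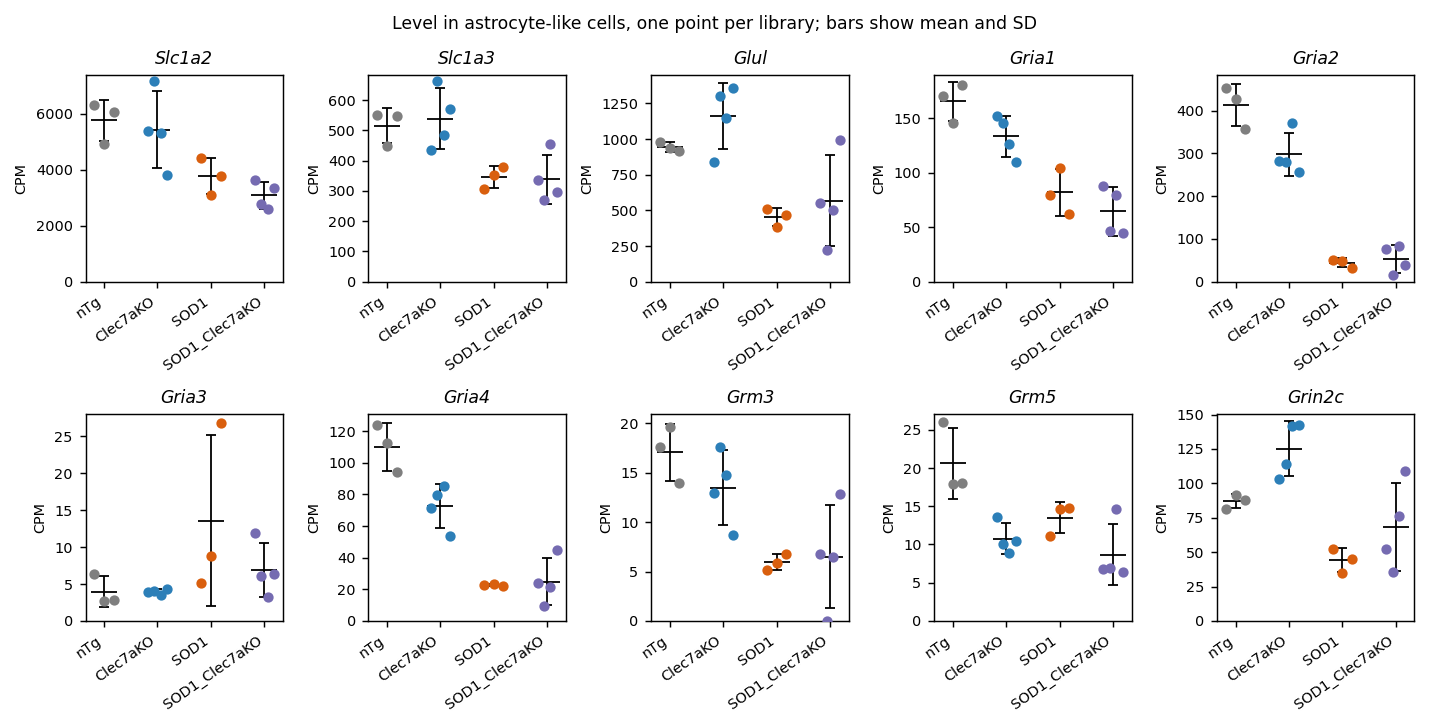
Level of each of the 10 genes in astrocytes (CPM, linear axes from 0), with a point for each of the 14 libraries and bars for the mean and SD of each group. The SOD1 libraries do not overlap the nTg libraries for 9 of the 10 genes, and for Gria2 they are at 31.6 to 50.4 CPM against 357 to 452 CPM.

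Gria2 had the largest change of the 10 genes in astrocytes. Its gene lies on the minus strand of chromosome 3 (GRCm38, GENCODE vM21 positions 80681450 to 80802835). The sequence upstream of its start is shown because Gria2 and Gria4 carried the largest falls and because Gria2 is a textbook target of REST, a repressor of neuronal genes in other cells. Its RefSeq promoter window on GRCm38.p6, chr3:80802836-80803085 read on the minus strand, is printed 5′ to 3′ with the match to the REST motif in capitals.
Gria2: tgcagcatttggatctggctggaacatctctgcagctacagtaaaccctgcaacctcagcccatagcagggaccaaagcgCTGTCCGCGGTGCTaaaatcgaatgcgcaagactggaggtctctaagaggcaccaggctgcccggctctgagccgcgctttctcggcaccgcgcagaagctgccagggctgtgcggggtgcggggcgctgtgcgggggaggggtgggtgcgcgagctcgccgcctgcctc
Of 3 motifs searched on both strands and chosen after the data were seen, the REST motif was AGCACC, any 2 bases and GGACAG. It was found in 15 of the 32851 promoter windows of this length (0.0457%), and among the 7 of the 10 genes that the table held only Gria2 had it, ending 156 bases before the start. The GC box GGGCGG was in 32.7% of the windows and in those of Glul, Grin2c, Grm3 and Slc1a3, and the cyclic AMP response element TGACGTCA was in 1.55% and in 0 of the 7. The window of Slc1a2 (chr2:102706188-102706437) lies inside the gene as annotated here, which starts at 102658659, so it does not describe the sequence upstream of that start. Gria4, whose window was among the 7, had no match to the REST motif. A match is a description of letters, binding was not measured, and a part of REST in the falls was not tested.

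Gria2 in astrocytes was at 452, 428 and 357 CPM in nTg and at 50.4, 49.1 and 31.6 CPM in SOD1. It was at 282, 280.4, 369.9 and 257 CPM in Clec7aKO and at 76.8, 14.8, 83.0 and 38.4 CPM in SOD1_Clec7aKO. All 7 libraries with the transgene lay below all 7 without it. The level in SOD1 was 9.53-fold below nTg (-3.25 ± 0.40 on the log2 scale, edgeR adjusted p = 3.27e-05), and in SOD1_Clec7aKO 5.36-fold lower than in Clec7aKO (-2.42 ± 0.35, adjusted p = 0.000108). Of astrocytes thinned to 2000 UMIs, 45.0% ± 3.19 (SD, n = 3) had a Gria2 UMI in nTg and 10.5% ± 4.68 (n = 3) in SOD1. The shares were 37.3% ± 3.59 (n = 4) in Clec7aKO and 11.7% ± 5.33 (n = 4) in SOD1_Clec7aKO, against 0.766% of T and NK cells (at most 2.86% in any group measured). Before thinning they were 62.8%, 15.3%, 52.7% and 15.5% for nTg, SOD1, Clec7aKO and SOD1_Clec7aKO.

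Gria4 in astrocytes was at 124, 112 and 94.1 CPM in nTg and at 22.99, 23.5 and 21.99 CPM in SOD1. It was at 71.5, 79.5, 85.6 and 53.8 CPM in Clec7aKO and at 23.8, 9.58, 21.2 and 44.8 CPM in SOD1_Clec7aKO. Here too every library with the transgene lay below every library without it. SOD1 lay 4.83-fold below nTg (-2.27 ± 0.26 on the log2 scale, edgeR adjusted p = 2.32e-05). The log2 fold change in SOD1_Clec7aKO against Clec7aKO was -1.84 ± 0.26 (adjusted p = 0.0001).

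Gria1 fell by less. It was at 170.3, 146 and 179.9 CPM in nTg and at 79.4, 104 and 62.0 CPM in SOD1, and at 152, 145, 126 and 110.2 CPM in Clec7aKO and 87.9, 46.1, 79.7 and 44.8 CPM in SOD1_Clec7aKO. The groups with and without the transgene did not overlap. Fold changes on the log2 scale were -1.03 ± 0.24 (edgeR adjusted p = 0.00339) and -0.97 ± 0.22 (adjusted p = 0.00321). The calls of Gria1, Gria2 and Gria4 stayed past the threshold in both comparisons under all 24 alternative settings of scaling, filters, libraries, covariates and clustering that kept both astrocyte clusters. Within cluster A alone, described below, Gria1 did not pass (-0.57, adjusted p = 0.135, and -0.35, adjusted p = 0.389), and in cluster B none of the 3 did. Gria4 in cluster B was at -1.50 ± 0.45 (adjusted p = 0.0603) in SOD1 against nTg, without overlap of the groups, and at -0.45 ± 0.53 (adjusted p = 0.72) in SOD1_Clec7aKO against Clec7aKO. Gria2 was at -0.87 ± 0.90 and -0.54 ± 0.86 there, and Gria1 at -0.22 ± 0.61 and -0.80 ± 0.59. Few UMIs lie behind these values, for Gria2 2 to 18 per library in nTg and 0 to 18 in Clec7aKO, and for Gria4 1 to 9 in Clec7aKO.

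Gria3 was the only one of the 10 genes that rose, from a low level. It was at 6.36, 2.72 and 2.84 CPM in nTg and at 5.19, 8.80 and 26.8 CPM in SOD1, so 1 SOD1 library lay within the nTg range. The log2 fold change was 1.86 ± 0.51 (edgeR adjusted p = 0.00905), and without SOD1_3 it was 0.90 (adjusted p = 0.202). In cluster A, described below, Gria3 had 20, 8 and 12 UMIs in nTg and 2, 0 and 3 in SOD1. In cluster B it had 2, 1 and 0 UMIs in nTg and 5, 12 and 64 in SOD1. Total UMIs were larger in nTg for cluster A and smaller for cluster B. The part of the cluster mix in this rise was not tested, and the Gria3 shares below rest on the same UMIs. In SOD1_Clec7aKO Gria3 was at 11.9, 6.09, 3.25 and 6.41 CPM and in Clec7aKO at 3.50 to 4.34 CPM, with a log2 fold change of 1.04 ± 0.54 that did not pass (adjusted p = 0.146). In SOD1_Clec7aKO_4, the smallest library, 3 astrocyte UMIs correspond to 19.2 CPM, so its values of Gria3, Grm3 and Grm5 are below the least level that 3 UMIs give.

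The make-up of AMPA receptor transcripts in astrocytes was measured as the share of each gene among Gria1 to Gria4 UMIs. These are 3′ counts of 1 UMI per captured molecule and were not scaled by length. Gria2 made up 59.5% ± 2.96 (SD, n = 3) in nTg and 26.9% ± 4.88 (n = 3) in SOD1, a difference of -32.6 percentage points. It made up 58.5% ± 3.99 (n = 4) in Clec7aKO and 32.6% ± 11.01 (n = 4) in SOD1_Clec7aKO, a difference of -25.9 points. Gria1 made up 24.1% ± 3.82 in nTg, 49.97% ± 6.30 in SOD1, 26.5% ± 3.65 in Clec7aKO and 45.0% ± 11.2 in SOD1_Clec7aKO. The 4 group means of Gria4 lay between 14.2% and 17.2%. In oligodendrocyte precursors Gria2 made up 47.1% to 52.1% in the group means. For Gria1, Gria2 and Gria3 no library with the transgene overlapped the matched group without it, and the exact permutation p (2-sided) was 0.1 for 3 against 3 libraries and 0.0286 for 4 against 4, the smallest these numbers allow. Adjusted over the 16 share tests the values were 0.261 and 0.152, so none passed. The shares in the transgene libraries rest on 21 to 506 UMIs and those without it on 490 to 2983 UMIs.

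**Figure D3:**
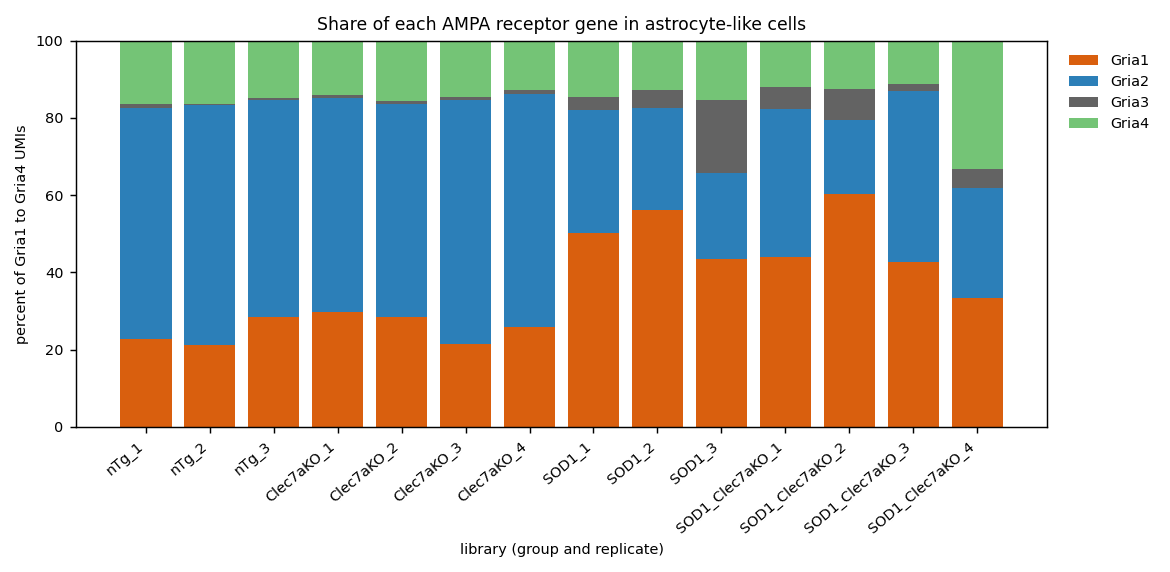
Stacked bars of the share (percent) of Gria1, Gria2, Gria3 and Gria4 among the UMIs of the 4 AMPA receptor genes in astrocytes, 1 bar per library. The Gria2 share averages 59.5% in nTg and 58.5% in Clec7aKO, and 26.9% in SOD1 and 32.6% in SOD1_Clec7aKO, of which SOD1_Clec7aKO_4 rests on 21 UMIs.

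Grm3 in astrocytes was at 17.6, 19.7 and 13.99 CPM in nTg and at 5.19, 5.86 and 6.80 CPM in SOD1. It was at 12.98, 17.6, 14.8 and 8.68 CPM in Clec7aKO and at 6.73, 0, 6.51 and 12.8 CPM in SOD1_Clec7aKO, where the highest library lay within the Clec7aKO range. The log2 fold changes were -1.48 ± 0.43 (edgeR adjusted p = 0.0129) and -1.43 ± 0.45 (adjusted p = 0.0231). The first was lost without nTg_2 (adjusted p = 0.0513), and the second without SOD1_Clec7aKO_2, Clec7aKO_2 or Clec7aKO_3 (adjusted p = 0.0659, 0.0646 and 0.0568). Within cluster A alone, described below, Grm3 was at -0.44 (edgeR adjusted p = 0.477) and -0.42 (adjusted p = 0.585). Cluster B held 0 to 2 Grm3 UMIs per library.

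Grin2c in astrocytes was at 81.5, 91.7 and 88.0 CPM in nTg and at 52.7, 35.2 and 45.2 CPM in SOD1, and the groups did not overlap. It was at 103, 114, 142 and 142 CPM in Clec7aKO and at 52.3, 35.7, 76.5 and 109 CPM in SOD1_Clec7aKO, where SOD1_Clec7aKO_4 lay within the Clec7aKO range. The log2 fold changes were -0.97 ± 0.26 (edgeR adjusted p = 0.00782) and -1.07 ± 0.24 (adjusted p = 0.00303), and the first was lost without SOD1_2 (adjusted p = 0.0541) and with Xist status as a covariate (-0.81, adjusted p = 0.056). Grm5 passed in neither comparison, with log2 fold changes of -0.59 ± 0.27 (adjusted p = 0.0939) and -0.42 ± 0.30 (adjusted p = 0.305). It was at 26.03, 17.9 and 18.02 CPM in nTg and at 11.1, 14.7 and 14.8 CPM in SOD1.

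**Figure D4:**
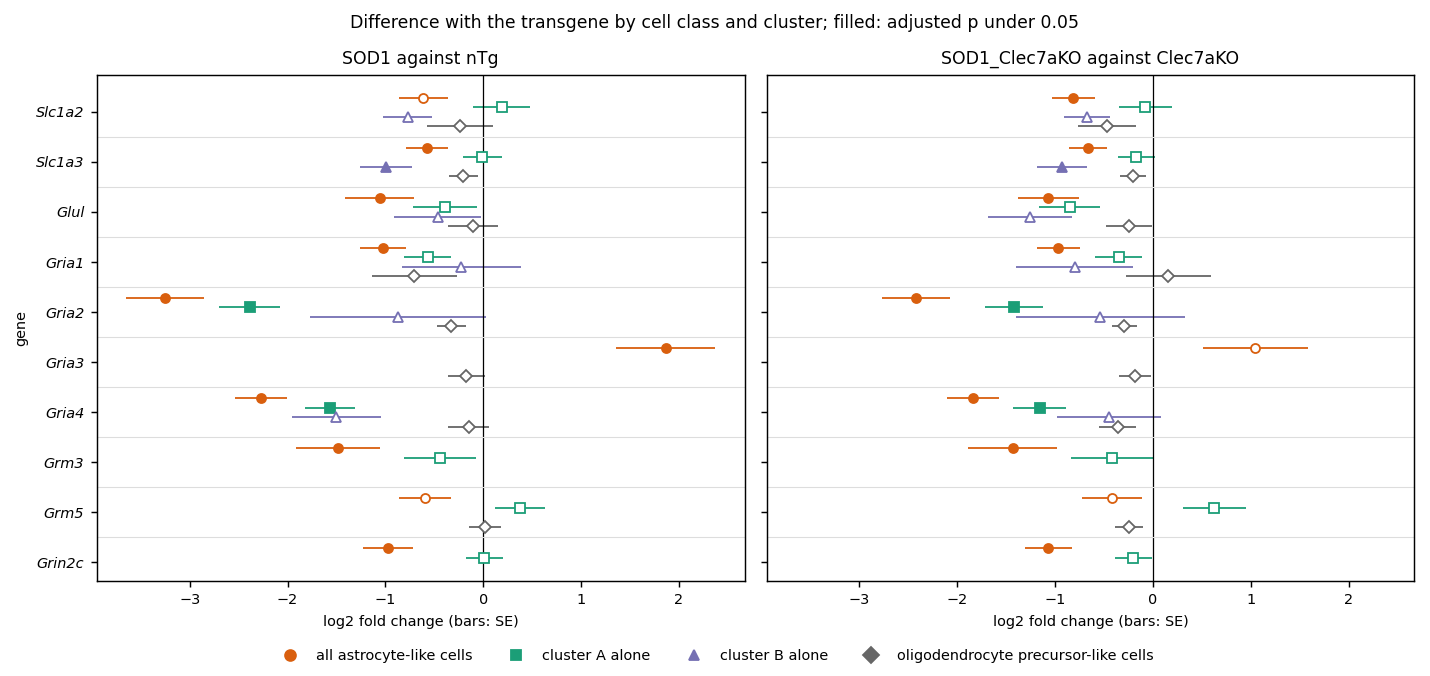
Log2 fold change (horizontal axis, bars for SE) of each of the 10 genes in SOD1 against nTg (left) and SOD1_Clec7aKO against Clec7aKO (right), in all astrocytes, in their clusters A and B and in oligodendrocyte precursors, with filled symbols for an adjusted p under 0.05. Gria2 is at -3.25 and -2.42 in all astrocytes and at -2.39 and -1.42 in cluster A, whereas Slc1a2 is at 0.19 and -0.08 in cluster A.

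The astrocyte class was made of 2 clusters, and the groups drew on them unequally. Cluster A (4410 cells, with Slc7a10 and Gja1 among its leading genes) held 88.8% ± 2.44 of the astrocytes in nTg, 88.8% ± 2.32 in Clec7aKO, 44.3% ± 4.06 in SOD1 and 45.8% ± 7.88 in SOD1_Clec7aKO. Cluster B (1498 cells, led by Aqp4, S100a6, Gfap and C3) held the rest. These shares are a description, since genes that differ between the groups also define the clusters. The values below come from fits within 1 cluster, chosen after the data were seen and without SOD1_Clec7aKO_4.

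Within cluster A, Gria2 and Gria4 were again lower with the transgene and no other of the 9 genes tested passed. Of all 10890 genes tested there, 12.5% passed in SOD1 against nTg and 9.77% in SOD1_Clec7aKO against Clec7aKO. Gria2 in cluster A was at 509, 446 and 383 CPM in nTg, at 104, 87.6 and 68.6 CPM in SOD1, at 279 to 402 CPM in Clec7aKO and at 170.5, 41.6 and 136 CPM in SOD1_Clec7aKO. No library with the transgene overlapped those without it. The log2 fold changes were -2.39 ± 0.31 (edgeR adjusted p = 9.09e-05) and -1.42 ± 0.29 (adjusted p = 0.00543). For Gria4 they were -1.57 ± 0.26 (adjusted p = 0.000807) and -1.16 ± 0.27 (adjusted p = 0.0115).

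The transporter genes did not pass within cluster A. Slc1a2 had log2 fold changes of 0.19 ± 0.29 and -0.08 ± 0.27 there, Slc1a3 of -0.01 ± 0.20 and -0.17 ± 0.19, and Grin2c of 0.01 ± 0.19 and -0.20 ± 0.19. Glul was at -0.39 ± 0.32 (edgeR adjusted p = 0.467) and -0.85 ± 0.31 (adjusted p = 0.093), and in cluster B at -0.47 ± 0.45 (adjusted p = 0.584) and -1.26 ± 0.43 (adjusted p = 0.114). In cluster B, where 6.14% and 4.27% of genes passed, only Slc1a3 did among the 6 genes tested, with -0.997 ± 0.27 (adjusted p = 0.037) and -0.93 ± 0.26 (adjusted p = 0.0495). Slc1a2 in cluster B was at 3407 ± 280.0 CPM in nTg and 1992 ± 169 CPM in SOD1, and at 2827 ± 443 CPM in Clec7aKO and 1767 ± 197 CPM in SOD1_Clec7aKO, without passing (adjusted p = 0.0711 and 0.114). Gria2 was low in cluster B, with group means between 14.3 and 27.0 CPM.

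RNA of microglia in the astrocyte class also moved with the transgene. The 12 microglia markers, none of them at 0 in any library, summed to 264 to 618 CPM in nTg, 621 to 2462 CPM in Clec7aKO, 1495 to 15791 CPM in SOD1 and 4784 to 14445 CPM in SOD1_Clec7aKO. The neuron markers summed to 206 to 218 CPM, 189.8 to 378 CPM, 102 to 113 CPM and 58.6 to 137 CPM in the same order. The ependymal markers summed to 89.3 to 92.2 CPM, 76.5 to 91.2 CPM, 169 to 297 CPM and 102 to 324 CPM, and the oligodendrocyte markers to 365 to 735 CPM, 356 to 412 CPM, 202 to 226 CPM and 131 to 346 CPM. With the transgene the sums of ependymal markers were thus higher and those of oligodendrocyte and neuron markers lower, without overlap. The nearest sums, 102 CPM of ependymal and 346 CPM of oligodendrocyte markers, came from SOD1_Clec7aKO_4. There 5 of 8 ependymal, 4 of 9 oligodendrocyte and 3 of 8 neuron markers were at 0, so these sums rest on few UMIs. Sums of endothelial and oligodendrocyte precursor markers overlapped between some groups with and without it. The mean of the libraries' median UMI count per astrocyte was 5577 in nTg, 4892 in Clec7aKO, 4364 in SOD1 and 3397 in SOD1_Clec7aKO. Astrocytes made up 8.31% to 18.002% of cells in nTg and 2.92% to 5.71% in SOD1, and 5.52% to 14.2% in Clec7aKO and 1.33% to 4.91% in SOD1_Clec7aKO. Their median mitochondrial share was 9.04% to 10.04% in nTg and 6.82% to 8.82% in SOD1, and 8.05% to 10.8% in Clec7aKO and 3.79% to 8.48% in SOD1_Clec7aKO. The part of depth, yield and mitochondrial share in the results was not tested. Astrocytes in which microglia markers made up at most 0.2% of UMIs gave 6 lower and 1 higher gene in SOD1 against nTg (33.3% of all genes passing) and 6 lower in SOD1_Clec7aKO against Clec7aKO (28.5%). Slc1a2 (-0.25 and -0.53 on the log2 scale) and Slc1a3 (-0.25 and -0.36) passed in neither comparison there. The part of neuron, ependymal and oligodendrocyte RNA in the results was not tested.

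Between groups alike in the transgene, the Clec7a knockout gave no call among the 10 genes in astrocytes. In SOD1_Clec7aKO against SOD1, 0 of 10 passed by edgeR (1 at an unadjusted p under 0.05, Grm5) and 0 by DESeq2, where 0.00767% of all genes passed by edgeR. An unadjusted p under 0.05 was found for 610 of all 13032 genes. Gria2 differed by 0.36 ± 0.38, Slc1a2 by -0.29 ± 0.23 and Grm5 by -0.72 ± 0.32 on the log2 scale in that comparison. In Clec7aKO against nTg, 0 of 10 passed by edgeR and by DESeq2, and 0 of all 13032 genes passed by edgeR. Gria4 (-0.59 ± 0.22), Grm5 (-0.90 ± 0.24) and Grin2c (0.52 ± 0.23) had unadjusted p under 0.05 there, as did 387 of all 13032 genes. Their groups did not overlap, which held for 4.63% of all genes. The difference of the transgene effect with and without Clec7a was called for 0 of the 10 genes by either tool, with 0 at an unadjusted p under 0.05. Of all 13032 genes, 0 were called for it by edgeR and 293 had an unadjusted p under 0.05. For Gria2 that difference was 0.83 ± 0.50 and for Gria4 0.43 ± 0.37, so differences of this size were not resolved.

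Oligodendrocyte precursors had more Gria2, Gria3 and Gria4 than astrocytes and no call for the transgene in the fit as designed. Of the 8 genes tested there, 0 passed by edgeR and by DESeq2 in either comparison, and 1 in SOD1 against nTg and 1 in SOD1_Clec7aKO against Clec7aKO (both Gria2) had an unadjusted p under 0.05. Of all genes in this class, 1.59% and 3.95% passed in these comparisons, and 1762 and 2671 of 13251 had an unadjusted p under 0.05. Gria2 was at 1002, 825 and 851 CPM in nTg and at 709, 691 and 738 CPM in SOD1, and at 805, 964.5, 893 and 794 CPM in Clec7aKO and 715, 679, 713 and 715 CPM in SOD1_Clec7aKO. The transgene groups lay below the others without overlap, with log2 fold changes of -0.33 ± 0.15 (edgeR adjusted p = 0.356) and -0.29 ± 0.13 (adjusted p = 0.218). Slc1a2 was at 1112 ± 237 CPM in nTg, 942 ± 53.9 CPM in SOD1, 979 ± 310 CPM in Clec7aKO and 705 ± 330 CPM in SOD1_Clec7aKO. With the library number as a covariate Slc1a2 passed in both comparisons (-0.78, edgeR adjusted p = 0.0208, and -0.64, adjusted p = 0.0122), and Gria4 in the second (-0.42, adjusted p = 0.0466).

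The transgene effect differed between astrocytes and oligodendrocyte precursors for 5 of the 8 genes tested. For each library the log2(CPM + 1) level in oligodendrocyte precursors was subtracted from that in astrocytes, and 7 libraries with the transgene were compared with 7 without it by an exact permutation test (2-sided), adjusted over the 8 genes measured in both classes. This test was chosen after the data were seen and was run on these 8 genes alone. The difference was -2.64 for Gria2 (adjusted p = 0.00233), -1.64 for Gria4 (0.00311), -0.94 for Glul (0.00233), -0.42 for Slc1a3 (0.00746) and 1.08 for Gria3 (0.00699). For Gria2 and Glul the 7 libraries of each kind did not overlap. Slc1a2 (-0.32, adjusted p = 0.187), Gria1 (-0.68, 0.122) and Grm5 (-0.29, 0.265) did not pass. The share of all genes that differ between the classes in this way was not measured. Of all genes, edgeR called 35.6% in astrocytes and 1.59% in oligodendrocyte precursors in SOD1 against nTg. In SOD1_Clec7aKO against Clec7aKO it called 33.3% and 3.95%, so the count of 5 is not read as particular to these genes.

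In microglia, Slc1a3 and Glul were lower with the transgene. Slc1a3 was at 75.3, 74.4 and 73.9 CPM in nTg and at 48.2, 58.2 and 56.6 CPM in SOD1, and at 78.3, 82.7, 73.1 and 76.7 CPM in Clec7aKO and 58.0, 38.2, 42.8 and 51.9 CPM in SOD1_Clec7aKO. The groups did not overlap, and the log2 fold changes were -0.46 ± 0.15 (edgeR adjusted p = 0.0283) and -0.70 ± 0.13 (adjusted p = 0.000503). Glul was at 765, 607 and 715 CPM in nTg and at 356, 367 and 397 CPM in SOD1, and at 636, 1024, 734 and 1292 CPM in Clec7aKO and 438, 311, 445 and 693 CPM in SOD1_Clec7aKO. The SOD1 libraries lay below nTg, whereas SOD1_Clec7aKO_4 lay within the Clec7aKO range. The log2 fold changes were -0.90 ± 0.28 (adjusted p = 0.0258) and -0.97 ± 0.25 (adjusted p = 0.00542).

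The microglia class pooled 11 clusters, and the groups drew on them unequally. Cluster 11 (10795 cells, with P2ry12, Selplg and Tmem119 among its leading genes) held 48.3% ± 17.7 of the microglia in nTg and 66.1% ± 16.4 in Clec7aKO, but 3.55% ± 4.49 in SOD1 and 2.80% ± 2.42 in SOD1_Clec7aKO. Cluster 4 (6556 cells, led by Spp1, Gpnmb and Lgals3) held 0.0707% ± 0.0615, 0.0364% ± 0.0246, 11.5% ± 4.66 and 18.97% ± 9.84 in the same order. TMM factors also split, at 1.04 to 1.24 without the transgene and 0.774 to 0.932 with it. Within cluster 11, on UMIs scaled to 1e+06 without TMM, Slc1a3 averaged 105.5 CPM in nTg and 103 CPM in SOD1, and 103 CPM in Clec7aKO and 85.3 CPM in SOD1_Clec7aKO. The Slc1a3 ranges of the groups with and without the transgene overlapped in both comparisons. Glul averaged 913 and 690 CPM there, and 1151 and 773 CPM, and its ranges overlapped as well. In cluster 4 Slc1a3 averaged 27.4 CPM in SOD1 and 23.0 CPM in SOD1_Clec7aKO. These cluster values were chosen after the data were seen and are a description, and the part of the cluster mix in the calls was not tested.

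The count of calls in microglia was 4 lower of 10 in SOD1 against nTg, where 32.3% of all 16615 genes passed (12.9% as lower), and 8 lower of 10 in SOD1_Clec7aKO against Clec7aKO, where 46.3% did (20.9% as lower). Beyond Slc1a3 and Glul, the calls were of genes near 0 (Gria1, Gria2, Gria4, Grm3 and Grm5, each at or below 2.61 CPM in every library) and of Slc1a2, which was at 4.51 to 107 CPM. Slc1a2 in microglia was highest in Clec7aKO_1, the library with the most astrocytes (1129), and the part of free astrocyte RNA in these calls was not tested. In SOD1 against nTg the Slc1a3 and Glul calls were lost without SOD1_2 or SOD1_3 and without nTg_1 or nTg_3 (Slc1a3 adjusted p = 0.0504 to 0.075, Glul 0.0552 to 0.08), and Slc1a3 also without SOD1_1 or nTg_2. Both were also lost with Xist status as a covariate (Slc1a3 -0.44, adjusted p = 0.0849, and Glul -0.72, adjusted p = 0.125). In SOD1_Clec7aKO against Clec7aKO the calls of Slc1a3 and Glul held under all 24 alternative settings. Between groups alike in the transgene, 0 of the 10 genes passed in microglia by edgeR or DESeq2, with 0 at an unadjusted p under 0.05, where 0.0181% (SOD1_Clec7aKO against SOD1) and 0.0241% (Clec7aKO against nTg) of all genes did by edgeR. In oligodendrocyte precursors 0 of 8 passed by either tool, 1 (Grm5) and 0 had an unadjusted p under 0.05, and 0.00755% and 0.0151% of all genes passed. At that unadjusted level lay 1096 and 380 of all 13251 genes.

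Endothelial cells, ependymal cells and mural cells had no call among the genes tested (6, 6 and 4 of the 10), by edgeR as designed or DESeq2. Calls appeared with the library number as a covariate for Slc1a2 in mural cells (SOD1 against nTg, -2.20, adjusted p = 0.00772) and endothelial cells (SOD1_Clec7aKO against Clec7aKO, -1.52, adjusted p = 0.0342). Without a filter on low counts they appeared in mural cells for Glul (SOD1 against nTg, -1.10, adjusted p = 0.0486) and Slc1a2 (SOD1_Clec7aKO against Clec7aKO, -1.51, adjusted p = 0.000321). Over these 3 classes and oligodendrocyte precursors, 2 of 24 tests in SOD1 against nTg and 4 of 24 in SOD1_Clec7aKO against Clec7aKO had an unadjusted p under 0.05. At that unadjusted level lay 863 and 1402 of all 13290 genes in endothelial cells and 1120 and 2221 of 15284 in ependymal cells. Mural cells had 376 and 494 of 7555 genes there, and oligodendrocyte precursors 1762 and 2671 of 13251. Past the adjusted threshold were 1.21% and 0.948% of all genes in endothelial cells, 0.975% and 1.28% in ependymal cells and 0.119% and 0.146% in mural cells. Glul in endothelial cells was at 649.8 ± 63.3 CPM in nTg and 589 ± 40.1 CPM in SOD1. The astrocyte libraries lay above this class in nTg and below it in SOD1. Slc1a3 in ependymal cells was at 250.2 ± 11.7 CPM in nTg, 257 ± 44.0 CPM in SOD1, 266 ± 20.6 CPM in Clec7aKO and 254 ± 32.5 CPM in SOD1_Clec7aKO. Grm3 in mural cells was at 64.5 ± 19.5, 62.5 ± 22.6, 62.3 ± 10.8 and 51.8 ± 7.43 CPM in the same order. Glul in mural cells was at 155 ± 82.7 CPM in nTg and 70.2 ± 4.24 CPM in SOD1 (log2 fold change -1.08 ± 0.33, edgeR adjusted p = 0.635). It was at 147 ± 33.5 CPM in Clec7aKO and 135 ± 46.1 CPM in SOD1_Clec7aKO (-0.10 ± 0.28, adjusted p = 0.99). SOD1_Clec7aKO against SOD1 gave 0.98 ± 0.34 (unadjusted p = 0.00906, adjusted p = 0.466), with groups that did not overlap, and the difference of the transgene effect with and without Clec7a was 0.99 ± 0.44 (unadjusted p = 0.0352, adjusted p near 1), so none passed.

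Of 60 further genes of glutamate handling, 38 were tested in astrocytes. In SOD1 against nTg 21 fell and 2 rose (median log2 fold change -0.69), and in SOD1_Clec7aKO against Clec7aKO 20 fell and 2 rose (median -0.75). Over all genes tested in astrocytes 17.8% fell and 17.8% rose in the first, and 16.6% and 16.8% in the second, with medians of -0.07 and -0.08. Of the NMDA receptor subunits 3 of 3 tested fell in the first comparison and 2 in the second, with Grin2b at -3.31 ± 0.44 (edgeR adjusted p = 6.36e-05) and -2.31 ± 0.44 (adjusted p = 0.00102). Grin2b had 93, 56 and 109 UMIs in nTg and 1, 5 and 6 in SOD1. It had 67, 26, 56 and 17 UMIs in Clec7aKO and 11, 1, 2 and 0 in SOD1_Clec7aKO. With the transgene some libraries lie below 3 UMIs, so the size of its fall is uncertain. Of the genes for potassium, water and gap junction channels 6 of 7 fell in the first and 5 in the second. These included Kcnj16 (a potassium channel, -0.88 and -1.03) and Gjb6 (connexin 30, -1.30 and -1.34), while Aqp4 did not pass.

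Among the transporters of amino acids 4 of 8 fell in each comparison. They included the glycine transporter Slc6a9 (-1.58 and -1.11), the GABA transporter Slc6a11 (-1.57 and -1.45), and the cystine-glutamate exchanger Slc7a11 (-1.08 and -1.23). The neutral amino acid transporter Slc1a5 rose, by 2.91 (edgeR adjusted p = 0.00324) and 2.33 (adjusted p = 0.0104), from few counts. It had 1 to 6 UMIs per library in nTg and 10 to 18 in SOD1, and 0 to 16 in Clec7aKO and 1 to 16 in SOD1_Clec7aKO. Several of these lie below 3 UMIs, so the size of the rise is uncertain. Of 5 auxiliary and editing genes of AMPA receptors 3 fell in each comparison, Shisa9 among them (-1.19 and -1.38). The scaffold Homer2 (-1.33 and -1.52) fell as well. Another Homer gene, Homer3, was higher rather than lower in cluster B in SOD1 against nTg (1.04 ± 0.35, edgeR adjusted p = 0.0862), without passing. The metabolism genes fell in 2 of 7 and 3 of 7, and 0 of the 3 vesicular transporters passed the filter on low counts. Within cluster A, 6 of 36 tested fell and 2 rose in the first comparison, and 2 fell and 1 rose in the second. Of all genes tested in cluster A 12.5% and 9.77% passed, so the second count lay near the background.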

How the data were processed

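Single-cell RNA of whole spinal cords was measured in 14 libraries with 10x 3′ chemistry, per the labels' protocols. The deposited values were raw counts of UMIs per gene and barcode, not normalized by the authors. The submitters' processing notes name mm10, Cell Ranger, Seurat and DESeq2, and the matrix headers give software version 3.0.2. How near-identical or overlapping genes were counted is not given in the sources used here. Columns of other samples left out numbered 0. The genes, gene lists and tests were chosen with earlier results of these data known.

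Barcodes under 500 genes or 1000 UMIs (7127) and those over 15% mitochondrial UMIs (4963) were removed. The highest Scrublet scores were removed as doublets at 0.8% per 1000 barcodes (2.49% to 9.90% of a library, 7577 in all). Clustering used 2000 variable genes without the 10 genes and the 60 of the pathway list, 30 principal components, 15 neighbours and Leiden resolution 1.0 (scanpy 1.11.5). No integration was applied. Clusters were named from fixed markers when at least 3 were detected with a mean log2 fold of 1.0 or more and a second class did not exceed 5.0, the last set after the data were seen. For cerebrospinal fluid contacting neurons the neuron markers, which they share, were exempt from this limit. A cluster with more markers of another class than of its own among its top 10 genes stayed unnamed. So 2 clusters (3600 and 148 cells) had no name. Names may differ from the authors'.

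UMIs were summed per library and class (at least 20 cells) and tested with edgeR 4.0.16 (TMM, filterByExpr, quasi-likelihood test, 2-sided, all 14 libraries fitted together), with Benjamini-Hochberg adjusted p under 0.05 over all genes of the class. DESeq2 1.42.0 was an alternative. The SE is the absolute log2 fold change over the square root of the F statistic, so it is derived from the test. The least level told from 0 was set at 3 UMIs, for counting error only. The 10 genes were named in every class tested. From the pathway list the genes past the threshold with the 10 smallest p in astrocytes were eligible in each transgene comparison, and Slc1a5 and Aqp4 were named after their values were seen. Replicate numbers were checked for pairing, and same-numbered astrocyte samples had correlations of -0.15 to 0.51, not all over 0.1, so the numbers do not pair the samples. Tests were tried on simulated data first. Results for some genes are not reported here.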

Additional observations from a re-analysis of the deposited data

Results flagged for a closer look

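In 88 sets of 4 libraries (1 gene, class and group each), 7 had 1 library far from the other 3, and chance gives about 1 such set in 20. Grm5 in astrocytes was at 14.6 CPM in SOD1_Clec7aKO_3 and at 6.41 to 6.97 CPM in the others of its group. In Clec7aKO_1, endothelial cells had Slc1a2 at 159 CPM (23.4 to 44.8 CPM in the others) and Grin2c at 3.85 CPM (0.615 to 0.930 CPM). In SOD1_Clec7aKO_1, endothelial Grin2c was at 1.62 CPM with the others at 0, and mural Slc1a2 was at 100.4 CPM (18.3 to 26.8 CPM). Glul in ependymal cells was at 26.3 CPM in SOD1_Clec7aKO_4 (47.3 to 49.7 CPM). Gria2 in oligodendrocyte precursors was at 679 CPM in SOD1_Clec7aKO_2 (713 to 715 CPM). Clec7aKO_1 held 1129 astrocytes, the most of any library, and SOD1_Clec7aKO_1 held 502, the most in its group.

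The transgene effect in astrocytes minus that in oligodendrocyte precursors differed from 0 by an exact permutation test over libraries for 5 of 8 genes. On the log2 scale it was -2.64 for Gria2, -1.64 for Gria4, -0.94 for Glul, -0.42 for Slc1a3 and 1.08 for Gria3. The test was not run on all genes, so the share of them that differ is not known. Leaving out any 1 of the 14 libraries kept the adjusted p of these 5 genes at or below 0.0149.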

How the results depend on the processing

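In astrocytes the count of the 10 genes called in SOD1 against nTg was 8. It ranged from 5 to 7 when 1 library was left out (5 without SOD1_2, SOD1_3 or nTg_2) and was 5 with Xist status as a covariate, 2 in cluster A and 1 in cluster B. In SOD1_Clec7aKO against Clec7aKO it was 8, with 6 to 8 when 1 library was left out, 2 in cluster A and 1 in cluster B. The cluster fits hold fewer cells and were chosen after the data were seen. In the other classes the count in SOD1 against nTg was 4, all in microglia, with 0 to 4 when 1 library was left out (0 without SOD1_2, SOD1_3 or nTg_1, and 1 without nTg_2 or nTg_3), 8 with the library number as a covariate (6 in microglia, and Slc1a2 in mural cells and oligodendrocyte precursors), 0 with Xist status and 2 at Leiden resolution 0.5. In SOD1_Clec7aKO against Clec7aKO it was 8, with 3 to 9 when 1 library was left out (3 without SOD1_Clec7aKO_2 or Clec7aKO_1, 4 without SOD1_Clec7aKO_3) and 5 at Leiden resolution 0.5. The library number covariate gave 12, of which 3 were outside microglia. The cause of these moves was not tested. Grin2c in cluster A was at 0.0118 in SOD1 against nTg on the log2 scale, above 0, and no other called gene changed direction. The count of all genes called moved by over 1.5 times in astrocytes from 4638 to 2755 with Xist status (SOD1 against nTg), from 4344 to 2807 without SOD1_Clec7aKO_2, and to 1364 and 1064 in cluster A and 513 and 357 in cluster B. Glul in astrocytes missed the threshold in SOD1 against nTg with the library number (adjusted p = 0.0927) or Xist status (0.143) as a covariate, and Grin2c with Xist status (0.056).

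With the replicate number as a block the counts were 8 and 8 in astrocytes and 6 and 9 in the other classes, within 1.5 times the unblocked counts, and the comparisons between groups alike in the transgene stayed at 0. Levels of the 10 genes in astrocytes moved by less than their SD in 160 of 160 alternatives. Most of these left out 1 of the 14 libraries, which can move a mean only a little, so the count says little. Levels in the other classes were not checked in this way. Without a filter on low counts, 75 genes rather than 1 passed in astrocytes in SOD1_Clec7aKO against SOD1 and 250 rather than 0 in Clec7aKO against nTg, none of them among the 10 genes. Depth limits Gria3, Grm3 and Grm5 in astrocytes, whose values lie below the level of 3 UMIs in the smallest library. Gria3 in SOD1_Clec7aKO_3 and Grm3 in SOD1_Clec7aKO_2 lie below that level as well.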
